A study of Mus musculus with 7 samples.

Results

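Natural killer-like cells (cluster 15) were set against T lymphocyte-like cells (cluster 14) of the mouse kidney, inside each of 7 single-cell RNA libraries. The members were all cells that the authors' deposited matrix assigns to cluster 15 or cluster 14, which gave 313 and 1308 cells. Together these were 1621 of the 43745 cells of the matrix (3.71%). The cluster numbers are the authors', and the names rest on marker genes.

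The series profiled dissociated adult kidney of C57BL/6 mice aged 4 to 8 weeks with 10x Genomics droplets, a method that tags each captured transcript with a unique molecular identifier (UMI). The labels list 4 samples of genotype WT and 1 sample each of Cdh16CremTmG, SclCremTmG and Nphs2CremTmG, reporter lines in which Cre recombinase, driven by the promoter of the named gene, switches a membrane-bound fluorescent protein in the cells that express it. The matrix marks each cell with a barcode number from 1 to 7, and the labels also number the samples from 1 to 7, but nothing in the sources used here states that both numberings match, so genotypes were not compared. No treatment was given in the labels, and each barcode number is called a library here.

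Natural killer cells and T lymphocytes are related lymphocytes that recognise their targets differently. T lymphocytes signal through a clonal T cell receptor whose chains sit in a complex with the CD3 proteins, whereas natural killer cells read germline-encoded activating and inhibitory receptors, many of them lectin-like, through small adaptor proteins. Both can kill by releasing granules of perforin and granzymes, and both are found in the interstitium of the healthy kidney.

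The promoters of 6 genes show both ends of the comparison, the granule genes of killer cells and the receptor genes of T lymphocytes. Each run is the 250 bases before the gene's start in RefSeq, build GRCm38.p6, written 5′ to 3′ on the gene's strand. Capitals mark matches, on either strand, to a T-box half-site (TCACAC), a RUNX site (TGTGGT) or a TCF/LEF site (CTTTGA), which are the core letters bound by T-bet and Eomes, by the Runx proteins, and by Tcf7 and Lef1. All 6 genes had an entry.
Gzma, chr13:113100982-113101231, minus strand: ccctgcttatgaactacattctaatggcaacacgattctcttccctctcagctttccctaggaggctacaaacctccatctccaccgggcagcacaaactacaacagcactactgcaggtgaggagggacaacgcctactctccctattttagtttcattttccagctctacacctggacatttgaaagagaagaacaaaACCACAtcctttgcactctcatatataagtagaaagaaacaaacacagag
Gzmb, chr14:56262335-56262584, minus strand: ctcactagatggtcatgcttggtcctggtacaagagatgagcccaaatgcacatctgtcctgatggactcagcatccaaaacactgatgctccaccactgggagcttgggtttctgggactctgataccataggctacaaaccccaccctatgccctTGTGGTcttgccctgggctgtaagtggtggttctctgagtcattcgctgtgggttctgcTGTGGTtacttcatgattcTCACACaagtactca
Nkg7, chr7:43436888-43437137, plus strand: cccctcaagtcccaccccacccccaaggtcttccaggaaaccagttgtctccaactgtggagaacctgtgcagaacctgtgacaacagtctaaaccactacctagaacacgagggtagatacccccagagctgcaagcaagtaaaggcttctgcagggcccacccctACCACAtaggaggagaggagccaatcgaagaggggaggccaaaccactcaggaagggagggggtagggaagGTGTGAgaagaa
Cd3g, chr9:44980432-44980681, minus strand: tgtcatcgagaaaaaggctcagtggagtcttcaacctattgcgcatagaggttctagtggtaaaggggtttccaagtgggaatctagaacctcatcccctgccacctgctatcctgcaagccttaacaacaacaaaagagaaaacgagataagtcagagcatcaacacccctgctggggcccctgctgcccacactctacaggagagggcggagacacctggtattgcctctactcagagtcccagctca
Cd3d, chr9:44981536-44981785, plus strand: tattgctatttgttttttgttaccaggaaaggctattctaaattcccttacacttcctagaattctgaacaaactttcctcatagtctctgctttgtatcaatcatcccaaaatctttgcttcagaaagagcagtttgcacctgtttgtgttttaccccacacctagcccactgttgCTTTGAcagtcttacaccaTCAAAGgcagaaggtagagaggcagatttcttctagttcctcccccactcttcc
Il7r, chr15:9529877-9530126, minus strand: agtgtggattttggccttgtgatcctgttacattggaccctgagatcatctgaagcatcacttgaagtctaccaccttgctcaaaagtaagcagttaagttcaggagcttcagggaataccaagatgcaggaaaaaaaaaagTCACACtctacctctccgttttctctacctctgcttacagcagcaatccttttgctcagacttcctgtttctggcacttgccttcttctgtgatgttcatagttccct

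The T-box letters stood in Gzmb, Nkg7 and Il7r, and the RUNX letters in Gzma, Gzmb and Nkg7. The TCF/LEF letters stood in Cd3d alone of the 6, once on each strand, and Cd3g held none of the motifs. In all 27025 promoter windows of this length, 12.2% held the T-box letters, 14.2% the RUNX letters and 14.1% the TCF/LEF letters. A match is a description of letters and no evidence of binding. Cd3g and Cd3d lie head to head on chromosome 9, with starts 1355 bases apart.

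The clusters kept a narrow proportion to each other although both varied widely as shares of a library. Cluster 15 ranged from 0.131% to 3.76% of a library's cells and cluster 14 from 0.73% to 13.98%. Libraries 3 and 4 held the highest shares of both. The ratio of cluster 15 to cluster 14 cells was 0.240 ± 0.067 (SD, n = 7 libraries) and stayed between 0.175 and 0.347. Cluster 15 made up 14.9% to 25.7% of both clusters together. How cells were lost or favoured in dissociation was not measured, so these are shares of captured cells.

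**Figure D1:**
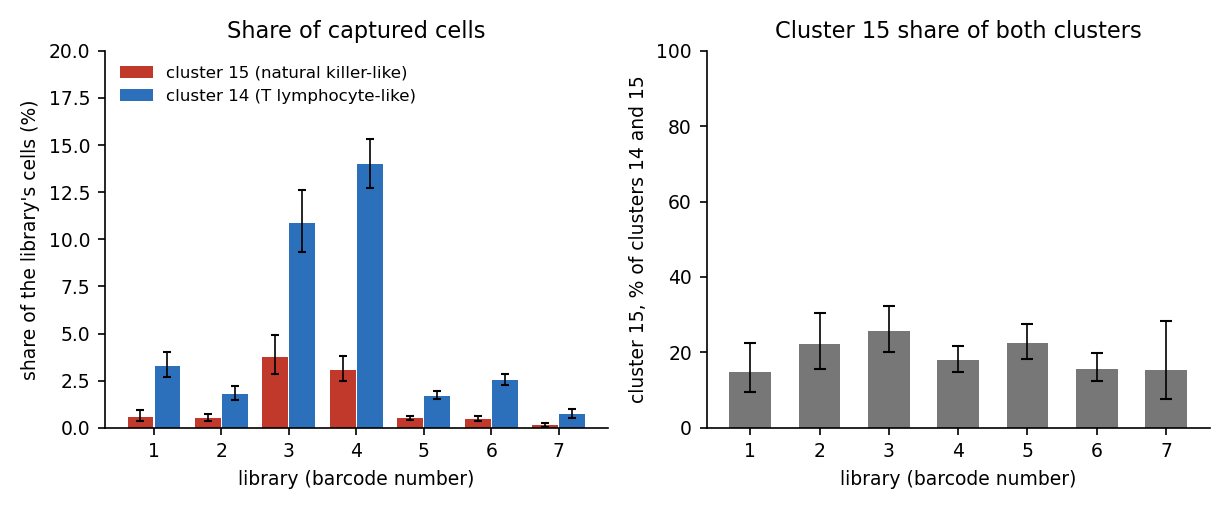
Share of each library's cells in cluster 15 and cluster 14 (left, %) and cluster 15 as a percentage of both clusters (right), by library, with 95% Wilson intervals that cover counting error only. Libraries 3 and 4 stand above the rest for both clusters on the left, while on the right every library lies between 14.9% and 25.7%.

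Depth was similar on both sides. Summed over the cells of a library, cluster 15 gave from 16957 UMIs (library 7, 7 cells) to 194895 UMIs (library 4, 83 cells), and cluster 14 from 95414 to 817006 UMIs. Median UMIs per cell were 1886 ± 350 in cluster 15 and 1900 ± 306 in cluster 14 (SD, n = 7). The log2 ratio was -0.016 ± 0.135 (SD), cluster 15 was higher in 4 of 7 libraries, and an exact two-sided sign-flip permutation test over libraries gave p = 0.766. Of the 1621 cells, 72 carried a barcode that also occurred in another library, and in 4 of these cells the matching cell was in cluster 14 or 15 too.

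At an equal number of UMIs, cluster 15 cells showed more different genes. With each cell thinned to 1000 UMIs, which left out 9 cluster 15 and 58 cluster 14 cells, the median number of genes was 540 ± 15.8 in cluster 15 and 504 ± 24.3 in cluster 14 (SD, n = 7 libraries). The difference was 36.2 ± 16.3 genes, was positive in 7 of 7 libraries, and had an exact permutation p = 0.0156, the smallest that 7 libraries allow. Without thinning the medians were 858 and 794 genes.

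Expression was compared on UMI counts summed per library and cluster, given as CPM (counts scaled to a fixed total per sum), with edgeR's quasi-likelihood test and the library as a block. Of 1857 genes with enough counts to be tested, 149 (8.02%) were higher and 236 (12.7%) were lower in cluster 15 at a Benjamini-Hochberg adjusted p under 0.05, or 385 (20.7%) in either direction. Library levels of the clusters did not overlap for 88 genes (4.74%). The median log2 fold over all genes tested was -0.04. The authors drew the clusters from the same counts, so these p-values describe how evenly the libraries show the separation and are no independent evidence that it exists. They reflect how the difference between the clusters varies over libraries, together with counting error. The labels do not say whether each kidney came from a separate animal.

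Some facts about the libraries bear on the values that follow. The cluster 15 sum of library 7 is so small that 1 UMI there is worth 59.0 CPM, and many genes known from natural killer cells, Ncr1 and Prf1 among them, fell short of the filter on low counts. A gene could pass that filter on the sums of either cluster alone. The tested members of a list can therefore lean towards the cluster where they are high. Libraries 3 and 4 stand apart in cell shares. Without both, 99 of 1460 genes (6.78%) were higher and 136 (9.32%) lower. Where their removal ends a call or moves a fold by more than 1.5 times, that value stands beside the gene if it is named. Klrb1c, Klrc1, Klrc2, Fasl, Il18rap, Stmn1, Rora, Tnfrsf18 and Cd6 were called in the main fit but not tested without both libraries. Whether their calls hold there is thus not known. Counts of lists are those of the main fit unless another is stated. They stand beside 8.02% higher and 12.7% lower over all genes tested, and those with no filter beside 1.47% and 3.45%.

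**Figure D2:**
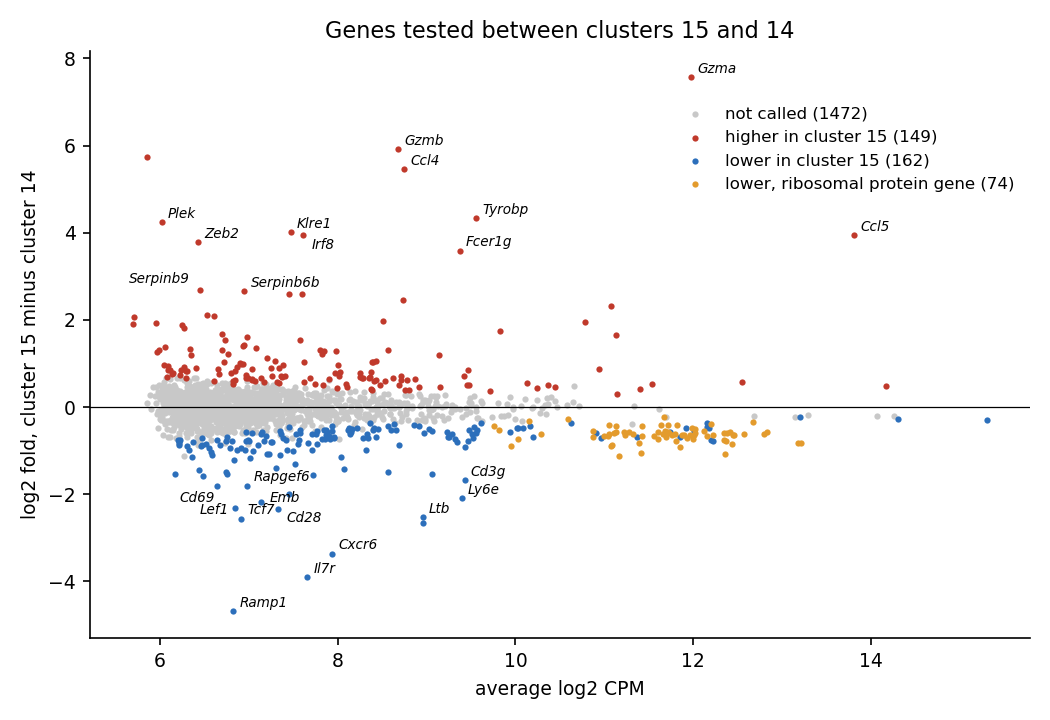
Log2 fold (cluster 15 minus cluster 14) of each of the 1857 genes tested against its average log2 CPM, with 24 named genes labelled and calls coloured. Gzma stands highest, at 7.56, Ramp1 lowest, at -4.68, and the 74 ribosomal protein genes that were lower form a band of small folds at high level.

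The cytotoxic granule genes were mostly higher in cluster 15 and included the gene with the largest fold of all genes tested, Gzma. Of 20 genes of this list in the matrix, 10 were tested, 8 were higher in cluster 15 and 0 were lower, with a median log2 fold of 2.21 beside -0.04 for all genes tested. Their summed level was 15978 ± 5536 CPM in cluster 15 and 1898 ± 479 CPM in cluster 14 (SD, n = 7), higher in 7 of 7 libraries. The 10 untested members had too few counts. With no filter on low counts (14194 genes, of which 1.47% were higher and 3.45% lower, or 4.92% in either direction), 10 members of the list were higher and 0 lower. That fit also moved the log2 folds of the 1857 genes by a median of -0.16, which bears on its counts of genes with small folds. Its adjusted p-values were far smaller for some genes, as 1.63e-124 for Gzmb (6.43e-12 in the main fit) and 1.07e-23 for Cd3g (3.64e-04). Calls with no filter, here and below, are thus not on the same footing as those of the main fit.

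Gzma, the gene of the granule protease granzyme A (chr13:113093825-113100981, minus strand), was at 3126 CPM in the lowest, 8641 in the median and 14079 in the highest cluster 15 library, and at 0, 27.1 and 99.4 CPM in cluster 14. Every cluster 15 library stood far above every cluster 14 library. The log2 fold was 7.56 ± 0.287 (SE, adjusted p = 2.15e-13), and 6.77 without libraries 3 and 4, where Gzma was highest. Gzmb, the gene of granzyme B, which starts the caspase cascade in target cells, ranged from 118 through a median of 806 to 1842 CPM in cluster 15 and from 0 through 13.2 to 48.7 CPM in cluster 14. The groups again did not overlap, and the log2 fold was 5.92 ± 0.297 (adjusted p = 6.43e-12).

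Nkg7, which codes for a membrane protein of the granules, was present in both clusters but at different levels. It ranged from 3094 through 3820 to 5259 CPM in cluster 15 and from 405 through 703 to 1144 CPM in cluster 14. The log2 fold was 2.33 ± 0.114 (adjusted p = 4.99e-12), with no overlap. Among the granule regulators, Cst7 (a cathepsin inhibitor), Serpinb9 (the inhibitor that shields killer cells from granzyme B), Serpinb6b and Fasl (the Fas death ligand) were higher by 1.37 to 2.69 on the log2 scale. Ctsw, a cathepsin of cytotoxic lymphocytes, was higher by 0.66 (adjusted p = 0.0063) but passed no longer with no low-count filter (0.51, adjusted p = 0.0855), after thinning (0.45, adjusted p = 0.121), without the block (adjusted p = 0.197) or with all 16 clusters in the fit (adjusted p = 0.0613). Prf1, the gene of perforin, was not tested, and ranged from 32.1 through 82.3 to 185 CPM in cluster 15 against at most 4.8 CPM in cluster 14, with no overlap.

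The levels of Serpinb9, Serpinb6b and Irf8 in cluster 14 depended on 1 cell of library 2. This cell had 10154 UMIs and no UMI of Cd3d, Cd3e or Cd3g. It held 50 of the 51 Irf8 UMIs of the sum, 26 of 29 Serpinb9 UMIs, 34 of 41 Serpinb6b UMIs and 294 of 325 UMIs of Cst3, which codes for cystatin C and is abundant in myeloid cells. Without this cell the library's Irf8 level was 4.73 CPM in place of 230.4 CPM. Irf8, a transcription factor of natural killer and myeloid cells, had a log2 fold of 3.95 ± 0.409 (adjusted p = 4.79e-07) with it, and 5.05 when library 2 was left out or 5.24 without the 5% of cells with the most UMIs. It was 2.83 without libraries 3 and 4. Serpinb9 was higher by 2.69 ± 0.317, and by 1.89 without libraries 3 and 4.

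Chemokine genes differed at a high level of expression. The 5 chemokine genes in the matrix summed to 30577 ± 7687 CPM in cluster 15 and 1992 ± 1027 CPM in cluster 14, higher in 7 of 7 libraries; 3 were tested and 2 were higher. Ccl5, a chemokine that killer cells store and release, ranged from 19669 through 27215 to 39253 CPM in cluster 15 and from 535 through 1586 to 3851 CPM in cluster 14. The ranges were far apart, with a log2 fold of 3.94 ± 0.176 (adjusted p = 1.45e-12).

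Ccl4, another chemokine of killer cells, ranged from 182 through 878 to 2725 CPM in cluster 15 and from 6.4 through 24.5 to 39.7 CPM in cluster 14. It was higher by 5.46 ± 0.325 without overlap, and by 4.82 without libraries 3 and 4. Ccl3 was not tested and lay between 59.0 and 1144 CPM in cluster 15, against at most 10.5 CPM in cluster 14. Xcl1, which attracts cross-presenting dendritic cells, behaved differently. Its log2 fold was 0.17 ± 0.369 (adjusted p = 0.835), it was higher in cluster 15 in 2 of 7 libraries, and its sign changed in several alternatives.

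**Figure D3:**
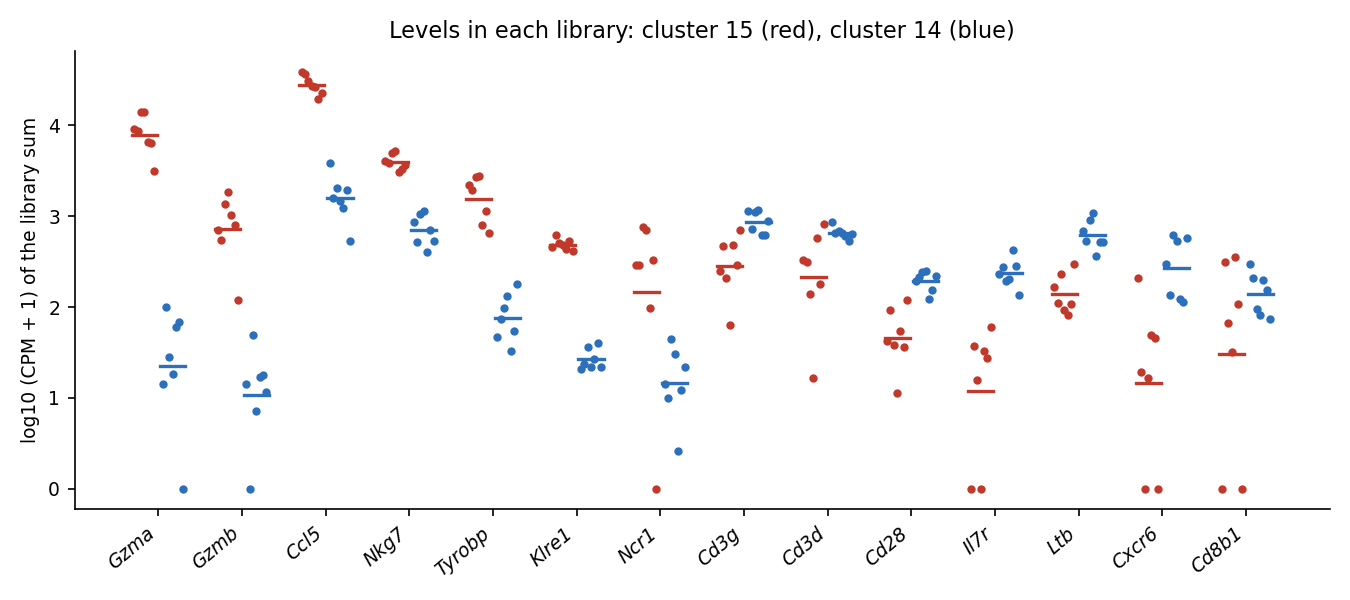
Level of 14 genes in each library, as log10 of CPM + 1, in cluster 15 (red) and cluster 14 (blue); points are the 7 libraries in order and bars their means. Points of Gzma, Gzmb, Ccl5, Nkg7, Tyrobp and Klre1 do not overlap, those of Cd3g, Cd3d and Cd8b1 do, and cluster 15 of library 7 lies at 0 for Ncr1.

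The lectin and Ly49 receptor genes that could be tested were higher in cluster 15. Of 11 NKR-P1, NKG2 and KLRG1 lectin receptor genes in the matrix, 6 were tested and all 6 were higher, with a median log2 fold of 2.21. Members low in cluster 14 could pass the filter through cluster 15 alone, which favours this direction. With no filter all 11 were higher. Klre1, a lectin receptor that pairs with other receptors of its family, ranged from 413 through 482 to 618 CPM in cluster 15 and from 19.8 through 22.6 to 39.1 CPM in cluster 14. The values of each cluster were close together and far from those of the other, with a log2 fold of 4.02 ± 0.171 (adjusted p = 9.52e-13).

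Klrd1 (CD94, the partner of the NKG2 chains) was higher by 2.45 ± 0.148, with no overlap between 567 to 1236 CPM in cluster 15 and 75.2 to 273 CPM in cluster 14. Klrk1 (NKG2D) was higher by 1.98 ± 0.266, by 2.68 without libraries 3 and 4, and in 6 of 7 libraries. Klrc1 and Klrc2, which code for NKG2 chains, were higher by 1.62 and 1.82, both with overlap. Klrc1 passed no longer without the block (adjusted p = 0.161), and Klrc2 reached 2.45 without library 3 and 2.56 in DESeq2. Klrb1c, the gene of the NK1.1 antigen, was higher by 2.60 ± 0.276 and had no UMI in cluster 15 of library 7.

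The Ly49 receptors, which sense MHC class I in mice, had 9 genes in the matrix and only Klra7 among those tested. Klra7 ranged from 80.9 through 203 to 411 CPM in cluster 15 and from 0 through 0 to 13.6 CPM in cluster 14. The groups did not overlap, and the log2 fold was 5.75 ± 0.357 (adjusted p = 1.82e-10). As a gene so low in cluster 14, Klra7 could pass the filter through cluster 15 alone, which favours this direction and the lack of overlap. The list summed to 1267 ± 648 CPM against 31.0 ± 21.2 CPM, and 6 of its genes were higher with no filter.

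The adaptors that carry the signal of these receptors differed by kind. Of 13 activating receptor and adaptor genes in the matrix, 3 were tested and 2 were higher, and with no filter 9 were higher and 1, Cd226 (the receptor DNAM-1), was lower. Tyrobp (DAP12), which carries an activation motif and serves Ly49 and NKG2 receptors, ranged from 649 through 1946 to 2802 CPM in cluster 15 and from 32.0 through 72.3 to 178 CPM in cluster 14. It was higher by 4.33 ± 0.207 (adjusted p = 4.18e-12). Fcer1g, the Fc receptor gamma chain, ranged from 626 through 1390 to 2586 CPM against 39.99 through 108 to 231 CPM and was higher by 3.59 ± 0.199 (adjusted p = 3.09e-11). Neither overlapped between the clusters.

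Hcst (DAP10), the adaptor of NKG2D, was at 691 to 1358 CPM in cluster 15 and 488 to 793 CPM in cluster 14. Its log2 fold was 0.26 ± 0.137 (adjusted p = 0.207), and 0.53 (adjusted p = 0.00906) without libraries 3 and 4 or 0.41 (adjusted p = 0.0478) without library 4. Cd247, the zeta chain used by both the T cell receptor and natural killer receptors, had a log2 fold of 0.14 ± 0.328 (adjusted p = 0.839), with a sign that changed in 6 alternatives. Ncr1 (NKp46), the receptor most specific to natural killer cells, was not tested. It ranged from 0 through 291 to 765 CPM in cluster 15 and from 1.6 through 13.2 to 43.3 CPM in cluster 14.

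On the T lymphocyte side, the CD3 genes were lower in cluster 15 but far from absent. Of the 4 genes of the T cell receptor complex in the matrix, 3 were lower and 0 higher, with a median log2 fold of -1.54. Their sum was 908 ± 564 CPM in cluster 15 and 1894 ± 407 CPM in cluster 14, and in 6 of 7 libraries it was lower in cluster 15. The constant chains of the receptor itself were not analysed here.

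Cd3g, the CD3 gamma chain (chr9:44969572-44980431, minus strand), was at 61.6 CPM in the lowest, 292 in the median and 708 in the highest cluster 15 library, and at 615, 880 and 1163 CPM in cluster 14. Relative to their means the cluster 15 values were more widely spread than those of cluster 14, and the highest of cluster 15, in library 7, reached into the range of cluster 14. Cd3g fell by 1.67 on the log2 scale (SE 0.31, adjusted p = 3.64e-04), was lower in 7 of 7 libraries, and fell by 0.87 without libraries 3 and 4. Cd3d fell by 1.54 (SE 0.339) and by 0.76 without those libraries. It passed no longer without the block (adjusted p = 0.0959). Cd3e fell by 1.55 (SE 0.334), but by 0.60 with an adjusted p = 0.127 without libraries 3 and 4.

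The CD3 UMIs of cluster 15 were carried by a minority of its cells. Counting a cell as positive if it had a UMI of Cd3d, Cd3e or Cd3g, 87 of the 313 cluster 15 cells were positive. The share per library was 33.4% ± 21.8 (SD, n = 7), from 12.05% in library 4 to 71.4% in library 7. In cluster 14 it was 87.1% ± 3.94, and in proximal tubule cells (cluster 3), which should lack CD3, 0.292% ± 0.410. Median depths were 1990 UMIs in cluster 15, 1875 in cluster 14 and 2281 in cluster 3. With each cell thinned to 1000 UMIs the shares were 30.3%, 74.6% and 0.129%.

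**Figure D4:**
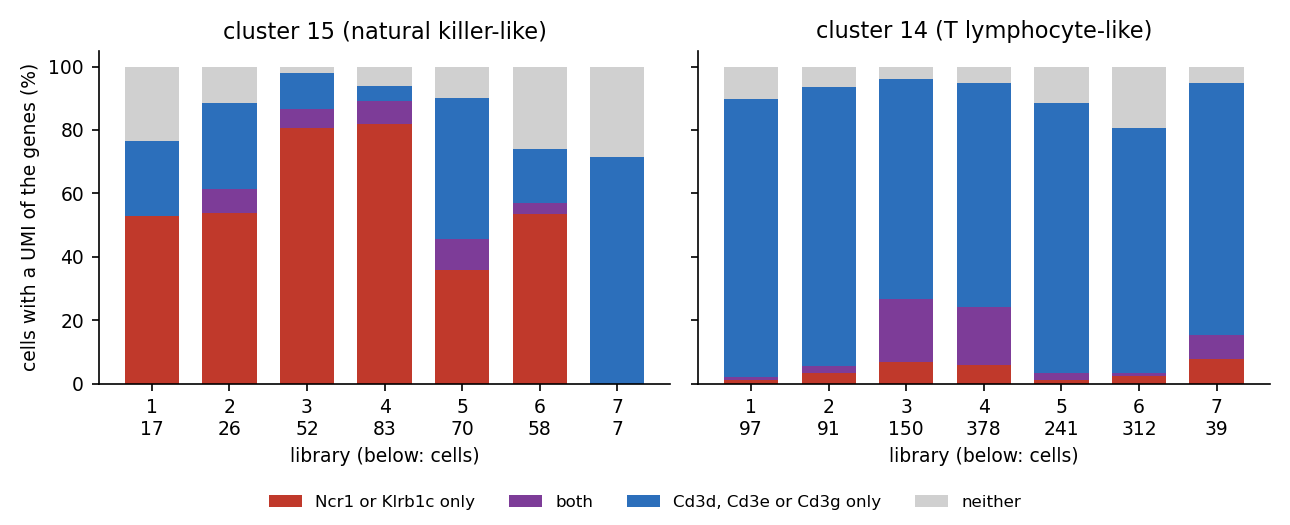
Percentage of cells in each library with a UMI of Ncr1 or Klrb1c only, of Cd3d, Cd3e or Cd3g only, of both, or of neither, in cluster 15 (left) and cluster 14 (right); the number of cells stands under each bar. Cells with CD3 UMIs reach from 12.05% to 71.4% of cluster 15, and cells with Ncr1 or Klrb1c UMIs are most frequent in cluster 14 of libraries 3 and 4.

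Few cells carried both kinds of receptor. In cluster 15, 67 cells had CD3 UMIs only, 189 had Ncr1 or Klrb1c UMIs only, 20 had both and 37 had neither. Library 5 supplied 38 of the 87 positive cells, out of 70. In library 7, 5 of 7 cells were positive and 0 of 7 had an Ncr1 or Klrb1c UMI, which, at a floor of 3 cells, allows a share of up to 42.9% of cells with such a UMI and sets no limit on cells that express the genes. UMIs of Ncr1 or Klrb1c were thus found in most cluster 15 cells but not in all, with the lowest shares in libraries 5 and 7. Gzma and Nkg7 UMIs were in 92.3% and 99.7% of cluster 15 cells.

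The 87 positive cells had several killing and receptor genes at levels near those of the other 226 and differed in others. These are levels pooled over cells and libraries, with no test, and the grouping by CD3 fixes the CD3 levels themselves. Both groups also differ in their libraries. Library 5 held 38 of the 87 positive cells, and libraries 3 and 4 held 43 and 73 of the 226 negative cells. Gzmb was at 1201 CPM in positive and 1211 CPM in negative cells. Nkg7 was at 3966 and 4253 CPM, Klre1 at 465 and 500 CPM, and Ccl5 at 36564 and 23924 CPM. Gzma was at 6983 and 11326 CPM. For each of these 5 genes the levels were within 1 log2 unit of each other, which did not hold for every granule gene.

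Other genes differed more between the pooled groups. Cd8b1, the CD8 beta chain of T lymphocytes, was at 508 CPM in positive and 11.5 CPM in negative cells. Gzmk, the gene of granzyme K, was at 286 and 3.84 CPM, and Cd6, a T lymphocyte surface receptor, at 96.9 CPM and 0. In the other direction, Tyrobp was at 668 and 2364 CPM, Fcer1g at 475 and 2097 CPM, Ncr1 at 102 and 575 CPM, and Irf8 at 145 and 682 CPM. Whole cluster 15 sums also varied by library. Irf8 was at 177 CPM in library 5, and at 986 and 749 CPM in libraries 3 and 4. Tyrobp was at 798 CPM in library 5, and at 2736 and 2802 CPM in libraries 3 and 4. How much of the pooled differences came from library was not tested. All 23 Cxcr6 UMIs of cluster 15 were in positive cells.

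The CD8 genes followed the CD3 genes within libraries. Of the 87 positive cells, 52 had a UMI of Cd8a or Cd8b1, 29 of them in library 5, and of the 226 negative cells 3 had one. From library 1 to library 7 the positive cells with CD8 were 2 of 4, 7 of 9, 3 of 9, 3 of 10, 29 of 38, 7 of 12 and 1 of 5. Among negative cells they were 0 of 13, 0 of 17, 1 of 43, 0 of 73, 1 of 32, 1 of 46 and 0 of 2. The share was higher among positive cells in each of the 7 libraries. In cluster 14, 209 of 1127 positive cells had CD8. Between the clusters as a whole, Cd8b1 fell by 0.24 on the log2 scale (SE 0.301, adjusted p = 0.661), and Cd8a had a log2 fold of 0.26 ± 0.237 (adjusted p = 0.515).

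Restricting both sides changed what the comparison showed. The 87 positive cells were left out of cluster 15, and the 162 cells with an Ncr1 or Klrb1c UMI out of cluster 14. Library 7 kept 2 cluster 15 cells, under the minimum of 5, so its cluster 15 sum was not in this fit. Set against the whole clusters, the fit thus differs by that sum as well as by cells. Cd8b1 then fell by 3.67. As 52 cluster 15 cells with a CD8 UMI were among those left out and 3 were not, this fall follows from the restriction and is a description, as are the larger falls of other T lymphocyte genes. Bcl11b, a transcription factor that commits cells to the T lineage, fell by 4.75 in place of 2.00. Tyrobp was then higher by 5.74, Fcer1g by 4.89 and Serpinb9 by 3.34. The larger folds of Tyrobp and Fcer1g follow from the restriction too. In cluster 14 the cells left out had them at 356 and 450 CPM, and the cells kept at 43.4 and 60.0 CPM. In cluster 15 the cells left out had the lower levels, 668 and 475 CPM against 2364 and 2097 CPM. Il7r fell by 5.00, Ltb by 3.60 and Cd28 by 3.07, all more than in the whole clusters, and Ramp1 fell by 4.08, which was less. In all, 161 genes were higher and 196 lower of 1675 tested. The genes used for the restriction are not interpreted in it.

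Most cluster 14 cells with an Ncr1 or Klrb1c UMI had CD3 UMIs too, which held for Klrb1c but not for Ncr1. In cluster 14, 1014 cells had CD3 UMIs only, 49 had Ncr1 or Klrb1c UMIs only, 113 had both and 132 had neither. Klrb1c UMIs were in 110 cells with CD3 UMIs and 35 without. Ncr1 UMIs were in 4 cells with CD3 UMIs and 26 without. Of the 162 cells with an Ncr1 or Klrb1c UMI, 131 were in libraries 3 and 4. These 162 cells had Tyrobp at 356 CPM, Fcer1g at 450 CPM Gzma at 57.0 CPM and Cd3g at 909 CPM. None had a UMI of Klra4 or Klra8, and 1 had a CD8 UMI. The 181 cells with no CD3 UMI had a median of 1583 UMIs per cell and Tyrobp at 549 CPM, against 17.8 CPM in the 1127 positive cells. Whether droplets with more than 1 cell gave the mixed profiles was not tested with a doublet caller.

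The T lymphocyte transcription factors that could be tested were lower in cluster 15. All 6 tested T cell transcription factors (of 16 in the matrix) were lower, with a median log2 fold of -1.79. A member near the floor in cluster 15 could pass the filter through cluster 14 alone, which favours this direction. With no filter, 8 of the 16 were lower and 0 higher. Tcf7, which maintains naive and memory T lymphocytes, ranged from 0 through 17.7 to 91.0 CPM in cluster 15 and from 86.6 through 166 to 225 CPM in cluster 14, and fell by 2.56 (SE 0.343, adjusted p = 1.02e-05). Its partner Lef1 fell by 2.31, Bcl11b by 2.00 and by 1.33 without libraries 3 and 4, Satb1, a chromatin organiser, by 1.40, and Rora by 1.59. Maf fell by 0.99 (adjusted p = 0.0117), a call that ended without library 5 (adjusted p = 0.0516), without libraries 3 and 4 (adjusted p = 0.0901), without the block (adjusted p = 0.507) and in the restricted cells (adjusted p = 0.258).

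Of the natural killer transcription factors, 7 of 12 were tested, 4 were higher and 0 lower, with a median of 0.68. Zeb2, which drives terminal maturation of killer cells, ranged from 118 through 213 to 349 CPM in cluster 15 and from 6.62 through 13.5 to 31.4 CPM in cluster 14. It did not overlap and was higher by 3.78 ± 0.256, or by 3.15 without libraries 3 and 4. Klf2, a regulator of lymphocyte exit from tissue, was higher by 1.19 (adjusted p = 0.00391), but by 0.41 without libraries 3 and 4 (adjusted p = 0.117), and it passed no longer without the block (adjusted p = 0.0953). Eomes and Tbx21, the paired T-box factors of killer cells, were not tested and had medians of 96.4 and 103 CPM in cluster 15 against 5.41 and 13.0 CPM in cluster 14. Eomes did not overlap and Tbx21 did. The remaining call of the list, Runx3, was higher by 0.67 (adjusted p = 0.0297) and failed in most of the alternatives.

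Receptors for cytokines and costimulation moved in both directions and included some of the largest decreases. Of 5 tested costimulatory and inhibitory receptor genes (14 in the matrix), 3 were lower and 2 higher, and of 6 tested cytokine receptor genes (23 in the matrix), 1 was lower and 3 higher. Over all genes tested 12.7% were lower and 8.02% higher. Several calls of these 2 lists were weak. Without libraries 3 and 4 those of Cd27 (lower, adjusted p = 0.211), Cd7 (higher, adjusted p = 0.0901) and Ifngr1 (higher, adjusted p = 0.0928) ended. Cd52 and Il2rb, higher by 0.41 and 0.71 in the main fit, lost their calls in several alternatives. Il7r, the interleukin-7 receptor that keeps T lymphocytes alive, ranged from 0 through 26.6 to 59.0 CPM in cluster 15 and from 136 through 232 to 419 CPM in cluster 14. It fell by 3.91 (SE 0.296, adjusted p = 4.54e-09), with no overlap. Cd28, the main costimulatory receptor, ranged from 10.3 through 41.1 to 118 CPM against 122 through 212 to 250 CPM, and fell by 2.34 (SE 0.299), or by 1.56 without libraries 3 and 4. Icos, its inducible relative, was not tested and was at most 17.7 CPM in cluster 15 against 54.2 to 88.0 CPM in cluster 14. In the other direction, Il18rap, a chain of the interleukin-18 receptor, was higher by 1.88 ± 0.303 (adjusted p = 7.98e-05).

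Ltb, which codes for lymphotoxin beta and organises lymphoid tissue, ranged from 80.3 through 109 to 295 CPM in cluster 15 and from 362 through 529 to 1097 CPM in cluster 14, and fell by 2.52 (SE 0.198, adjusted p = 7.93e-09) with no overlap. Ramp1, a partner of the receptor for the neuropeptide CGRP, had 4 UMIs in all of cluster 15 and 393 in cluster 14. It ranged from 0 to 10.3 CPM against 92.6 to 283 CPM and fell by 4.68 (SE 0.365, adjusted p = 7.35e-09), or by 5.41 without libraries 3 and 4. Ly6e, a surface protein of lymphocytes, fell by 2.09 (SE 0.23), and by 1.40 without libraries 3 and 4. Emb, an adhesion protein of the immunoglobulin family, fell by 2.17 (1.48 without those libraries), and Rapgef6, an activator of the GTPase Rap, by 1.80. Plek, a substrate of protein kinase C, was the named gene left on the other side, at 139 to 288 CPM in cluster 15 and 5.41 to 27.1 CPM in cluster 14, and was higher by 4.24 ± 0.267 (adjusted p = 2.08e-10).

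Cxcr6 and Cd69, genes of tissue residence, were both lower in cluster 15. Cxcr6, a chemokine receptor of tissue-resident lymphocytes, ranged from 0 through 18.2 to 206 CPM in cluster 15 and from 112 through 298 to 614 CPM in cluster 14. The high value of cluster 15 was library 1 alone. Cxcr6 fell by 3.36 (SE 0.448, adjusted p = 9.68e-06), by 2.71 without library 3, by 2.74 without library 4 and by 1.72 without both. Cd69, a retention marker, fell by 1.81 (SE 0.267, adjusted p = 3.28e-05). Of 16 chemokine and lipid trafficking receptor genes in the matrix, 3 were tested, 1 (Cxcr6) was lower and 0 were higher, and with no filter 4 were higher and 7 lower. Over all genes 8.02% were higher and 12.7% lower, and with no filter 1.47% and 3.45%. A list with 3 tested genes says little beside such shares.

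Adhesion genes were mostly higher in cluster 15. Of 10 tested genes of the adhesion list, 7 were higher and 1, Cd69, lower, with a median log2 fold of 0.87. The shares over all genes tested were 8.02% higher and 12.7% lower. Itgb2, the beta chain of LFA-1, was higher by 1.53 ± 0.177 (adjusted p = 1.87e-06) and Itga4 by 1.54 ± 0.26 (adjusted p = 1.31e-04). Spn (CD43) and Cd48 were higher by 1.13 and 1.04, both without overlap. The calls of Itgal and Itgb1 did not hold in every alternative.

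Ccr7, the lymph node homing receptor, had no UMI in cluster 15 and 320 UMIs in cluster 14, where it ranged from 40.4 to 325 CPM. Set against a floor of 3 counts over the group, it was at least 27.5-fold lower. S1pr5, an exit receptor of killer cells, went the other way, with 94 UMIs in cluster 15 and 4 in cluster 14. Neither was tested. Of the 4 tested genes of the naive T list, 3 were lower and 1 higher, and with no filter 5 of 6 were lower and 1 higher.

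Lists for smaller T lymphocyte subsets gave few tested genes. Of the regulatory T list, 2 of 7 genes were tested and 1, Tnfrsf18, was lower (-1.03, adjusted p = 0.00787), a call lost without the block, with all 16 clusters and in the restricted cells. With no filter 5 of the 7 were lower and 0 higher. Foxp3, which defines that subset, had 0 UMIs in cluster 15 and 19 in cluster 14. Il2ra, the alpha chain of the interleukin-2 receptor, had 0 and 74 UMIs and was at least 6.37-fold lower against the same floor. Of the type 2 innate lymphoid list only Rora was tested, and of the gamma-delta and type 17 list only Maf, both given above. With no filter, 2 of 9 genes of the first list were lower and 1 higher, and 3 of 7 of the second were lower and 0 higher.

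Few division and stress genes had enough counts to be tested. Of 10 proliferation genes, 2 were tested and 1 was higher, Stmn1, a microtubule regulator, by 1.68 ± 0.251 (adjusted p = 3.51e-05). The summed level of the list was 683 ± 154 CPM in cluster 15 and 407 ± 114 CPM in cluster 14 (SD, n = 7), higher in 7 of 7 libraries. Mki67, a marker of dividing cells, was not tested and was at 13.7 ± 15.7 CPM in cluster 15 and 4.97 CPM on average in cluster 14, from 12 and 18 UMIs. Of 17 immediate early and heat shock genes, 7 were tested and 1 was higher, Ier2, by 0.98 ± 0.206 (adjusted p = 0.0012), beside 20.7% called over all genes tested. The mitochondrially encoded genes summed to 95748 ± 26149 CPM in cluster 15 and 99148 ± 24086 CPM in cluster 14, with 2 of 12 lower and 0 higher, beside 12.7% lower over all genes tested. Their median log2 fold was -0.22, and with no filter, where folds shifted down as given above, 9 of 13 were lower.

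**Figure D5:**
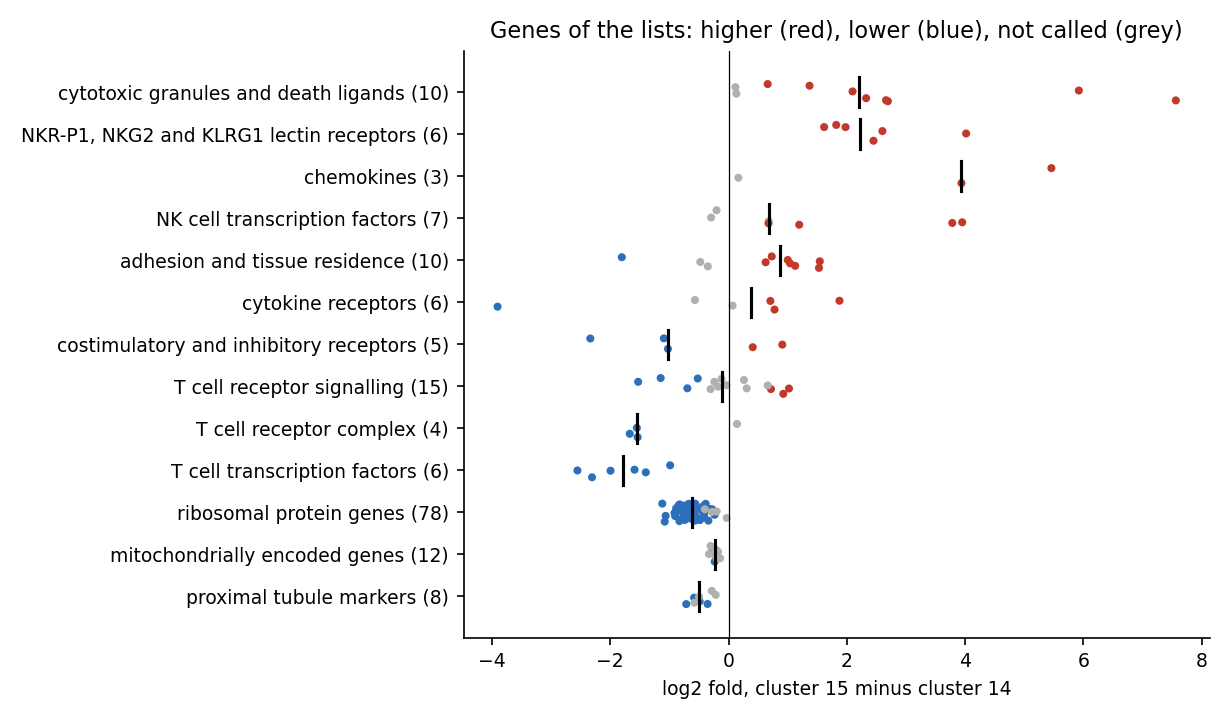
Log2 fold (cluster 15 minus cluster 14) of the tested genes in 13 gene lists, the number tested in brackets; colour marks the call and the black bar the list's median. Medians run from 3.94 for chemokines to -1.79 for T cell transcription factors, and 74 of 78 ribosomal protein genes lie on the lower side as calls.

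Genes of signalling downstream of the T cell receptor moved in both directions. Of 15 tested, 3 were higher, 4 lower and 8 not called, with a median of -0.12. Over all genes tested 8.02% were higher and 12.7% lower. With no filter 2 of 22 were higher and 11 lower, among them Cd4, the coreceptor of helper T lymphocytes, which was not tested otherwise. Fyn, a kinase used by both receptor systems, was higher by 1.02 ± 0.198 (adjusted p = 5.89e-04) with no overlap, and Sh2d1a (SAP, the SLAM adaptor) by 0.93 ± 0.189 (adjusted p = 9.50e-04). The kinases Lck and Zap70 had log2 folds of 0.31 (adjusted p = 0.0832) and -0.12 (adjusted p = 0.825). The adaptor Lat fell by 0.70 (adjusted p = 0.00314), which did not pass after thinning (adjusted p = 0.167), without the block (adjusted p = 0.147) or without libraries 3 and 4 (adjusted p = 0.0969).

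A broad difference of small size lay in the ribosomal protein genes. Of 78 tested, 74 were lower in cluster 15 and 0 higher, with a median log2 fold of -0.62. Their sum was 217937 ± 10375 CPM in cluster 15 and 303783 ± 26427 CPM in cluster 14, lower in 7 of 7 libraries. They made up 74 of the 236 genes called lower. Without them, 149 genes were higher and 162 lower of 1779. Refitted with these genes left out of the library totals, the counts were 140 and 167 of 1813.

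RNA of kidney tubule cells was present in both clusters. Of the 10 proximal tubule markers, 8 were tested, 4 were lower in cluster 15 and 0 higher, with a median of -0.49. Without the block 0 of these 4 passed. Their sum was 7465 ± 5337 CPM in cluster 15 and 9147 ± 4345 CPM in cluster 14. This was 5.19% to 32.9% of the level in proximal tubule cells of the same library for cluster 15 and 8.77% to 32.2% for cluster 14. In library 7 the shares were 5.19% and 17.2%, and in the other 6 libraries they were closer to each other. The 8 macrophage and monocyte markers summed to 288 ± 85.5 CPM in cluster 15 and 506 ± 514 CPM in cluster 14. Of these 2 were tested and none called, and with no filter both, Cst3 and Plac8, were lower. The highest sum, 1662 CPM, was in cluster 14 of library 2, where Cst3 was at 1468 CPM with the cell of 10154 UMIs and at 147 CPM without it. Red cell, neutrophil and endothelial markers stayed under 100 CPM in every sum. The B lymphocyte markers reached 400.5 CPM in 1 cluster 14 library and at most 41.1 CPM in cluster 15. The part of such RNA in the differences above was not tested.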

How the data were processed

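Single-cell 3′ libraries of 7 kidneys were made with the 10x Chromium kit, per the labels' protocols. The authors deposited 1 matrix of raw UMI counts with a cluster number per cell. The submitters' processing notes name Cell Ranger 1.3, STAR and mm10 (GRCm38.p4), and the cell filters and clustering method are not given in the sources used here. The matrix held 43745 cells and 16272 genes, and the design text states 57979 cells. Gene positions are from GENCODE vM21 on GRCm38, promoters from RefSeq.

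Counts of clusters 15 and 14 were summed per library where at least 5 cells were present, giving 7 sums a cluster. The main test was edgeR 4.0.16 (glmQLFit and glmQLFTest, TMM, filterByExpr by cluster, library block), with Benjamini-Hochberg adjustment over all genes tested and a threshold of 0.05. The block comes from the barcode number, which both sums of a library share. Alternatives were DESeq2 1.42.0, other scaling, no filter, at least 20 cells per sum, thinning to 1000 UMIs per cell, no block, all 16 clusters in the fit, removal of the 5% of cells with the most UMIs, cells without the other lineage's receptors, and each library left out; leaving out libraries 3 and 4 together and leaving out ribosomal protein genes were added after seeing the data. Genes named first were the 12 largest folds in each direction among called genes with an average log2 CPM of at least 6, changed the same way in 7 of 7 libraries; other genes come from the lists. Tested on simulated data (1860 genes, a dispersion of 0.1 set by hand), the procedure called 98.9% of 4-fold changes (88 genes) and 55.8% of 2-fold changes (86 genes). It also called 2 unchanged genes. The simulation gave all genes the same dispersion and had no library effect, so these shares need not hold for the real sums. The members and gene lists were chosen with earlier results of these data known. UMI sums of 16957 to 817006 limit the precision. No doublet caller was run. Receptor constant-chain genes were not analysed here.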

Additional observations from a re-analysis of the deposited data

Results flagged for a closer look

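Among 61 measures checked for 1 library far from the other 6, 8 were found. The limit used gives about 1 in 20 by chance for independent, normally distributed values. Levels from few UMIs need not follow that, and several of the 8 share the cluster 14 sum of library 2. In cluster 14, library 6 had the lowest share of cells with a CD3 UMI, 78.5%, where the next was 87.1%. Gzmb in cluster 14 was highest in library 3, at 48.7 CPM, where the next was 16.8 CPM. In library 2 the cluster 14 sums were highest for Irf8 at 230.4 CPM, Serpinb9 at 131 CPM, Serpinb6b at 185.2 CPM and Plek at 27.1 CPM. The 1 cell of 10154 UMIs described above held 50 of 51 Irf8 UMIs, 26 of 29 Serpinb9 UMIs, 34 of 41 Serpinb6b UMIs and 3 of 6 Plek UMIs of that sum, and without it these levels were 4.73, 14.2, 33.1 and 14.2 CPM. Ramp1 in cluster 14 was highest in library 7, at 283 CPM, where the next was 160.3 CPM. Cxcr6 in cluster 15 was highest in library 1, at 205.7 CPM, where 1 UMI is worth 41.1 CPM and the next library was at 48.2 CPM.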

How the results depend on the processing

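The 24 named genes kept their direction and their call in all 416 comparisons over 18 alternatives (DESeq2 and other choices listed above), having been chosen for large folds of one sign in every library. Over all 74 named and list genes followed, 110 of 1276 comparisons lost the call, 3 gained one and 15 changed sign. With no replicate block, 94 genes were higher and 117 lower, in place of 149 and 236, of which 93 and 117 were called with the block as well. Without libraries 3 and 4 the counts were 99 and 136, of 1460 genes tested. With no low-count filter 209 genes were higher and 490 lower of 14194, and 77 of the 149 higher and 233 of the 236 lower calls were shared, with folds of the same genes shifted by a median of -0.16. The adjusted p-values of that fit were far smaller for some genes, as given above. With all 16 clusters in the fit 202 were higher and 319 lower of 7952, and 80 of the 149 and 178 of the 236 were shared, with a median shift of -0.095. After thinning 111 were higher and 141 lower of 836 genes tested. With 1 library left out at a time, 118 to 184 genes were higher and 165 to 247 lower, fewest without library 4 in both directions. The log2 ratio of UMIs per cell changed sign with at least 20 cells of each cluster (0.043, exact permutation p = 0.4375, smallest possible 0.0625) and lay between -0.048 and 0.014 with 1 library left out. Among uncalled or weakly called genes, Fxyd2 changed sign in the restricted cells (0.0064), Cd8a without library 5 (-0.00014, up to 0.42 without library 6) and Cd8b1 without libraries 3 and 4 (0.086). Cd247 changed sign with DESeq2 (-0.070), no filter (-0.030), without library 3 (-0.13) or 4 (-0.15, the highest being 0.50 without library 5), with all 16 clusters (-0.10) and without libraries 3 and 4 (-0.81). Xcl1 changed sign with DESeq2 (-0.070), no filter (-0.028), at least 20 cells (-0.017), without library 1 (-0.17) or 5 (-0.19, the highest being 0.43 without library 3) and with all 16 clusters (-0.039). The causes were not tested. The thin cluster 15 sum of library 7 limits which genes could be tested.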
